A study of Mus musculus with 16 samples.

Results

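The genes described here are 9 members of the neurexin, neuroligin and contactin-associated protein families. They were chosen by name from the 19999 genes of the count table, with earlier results of these data known. They are the neurexins Nrxn2 and Nrxn3, the neuroligins Nlgn1 and Nlgn2, and the contactin-associated proteins Cntnap1, Cntnap2, Cntnap4, Cntnap5a and Cntnap5b, and all 9 had counts. They were measured by single-nucleus RNA-Seq in the medial PFC of 16 male mice, 22 weeks old by the labels. There were 4 mice in each of 4 groups, namely WT mice (strain B6;129) left unexposed as controls or exposed to alcohol vapor, and 3xTg-AD mice without or with the same exposure. 3xTg-AD mice carry mutant human APP and tau transgenes, driven by a Thy1 promoter that is active in neurons, and a mutant presenilin knockin in the mouse's own gene. Expression of the transgenes was not analysed here, so the genotype labels were not checked against it. By the study's methods all groups were injected with pyrazole, an inhibitor of alcohol dehydrogenase, and the alcohol groups with ethanol as well, so vapor and injected ethanol cannot be told apart. The paper states that tissue was taken days after the last of repeated vapor cycles and after water maze testing. Alcohol-exposed mice here thus had a history of exposure and were not under alcohol when sampled.

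Neurexins are presynaptic adhesion proteins that reach across the synaptic cleft and bind postsynaptic neuroligins. Nlgn1 is best known from excitatory synapses and Nlgn2 from inhibitory synapses. Contactin-associated proteins are distant relatives of the neurexins that pair with contactins. Cntnap1 (Caspr) sits at the paranodal junction beside the node of Ranvier, Cntnap2 (Caspr2) clusters potassium channels beside it, and Cntnap4 is known from interneuron synapses.

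Each mouse gave 4955 to 9096 nuclei and 9622031 to 17544364 unique molecular identifiers (UMIs), and 1694 barcodes occurred in more than 1 mouse. Clusters named from marker genes held 62833 of 114512 nuclei (54.9%), and 17 cell types had enough nuclei in each group to be tested. At least 4 markers of each type were 1.5-fold or more above all nuclei. The weakest was the L2/3 IT-like type, with 4 of 7 markers and a median ratio of 1.72. The same markers had named the clusters, so these ratios are a description and not an independent check. In 3 mice, WT controls 26 and 27 and 3xTg-AD mouse 12, Gm42418, a transcript that overlaps ribosomal RNA, reached 29046, 19430 and 17914 counts per 1000000 (CPM), while no other mouse exceeded 4249 CPM. The differences of members called by edgeR with all mice and without a covariate are therefore also given without these mice. Some fits below use Gm42418 as a covariate. Gm42418 was lower in each alcohol-exposed 3xTg-AD mouse (2059 to 3232 CPM) than in every WT control (3807 CPM or more). In covariate fits that compare these groups, group and Gm42418 therefore cannot be fully told apart. WT control 27 also held 1085 of the 1348 Meis2-like GABAergic nuclei, and 3xTg-AD mouse 12 held 65 of the 83 nuclei like striatal projection neurons. Neither type was tested, but both are part of the sums over all and all GABAergic nuclei. The sum over all nuclei also holds 34942 unnamed nuclei outside the neuronal clusters, 865 to 3867 per mouse, with a median of 841 UMIs. Their part in the results for all nuclei was not tested.

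The levels of several members differed widely between cell types. Levels are CPM after scaling by the trimmed mean of M-values (TMM), as mean ± SD over mice. Neighboring types in the order of levels were compared by sign-flip permutation of the per-mouse differences, with p-values adjusted over 144 pairs. Of these pairs, 24 differed at an adjusted p of at most 0.05, and 8 of the 24 belonged to Nrxn3. A pair that missed the threshold was not shown to be equal.

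**Figure D1:**
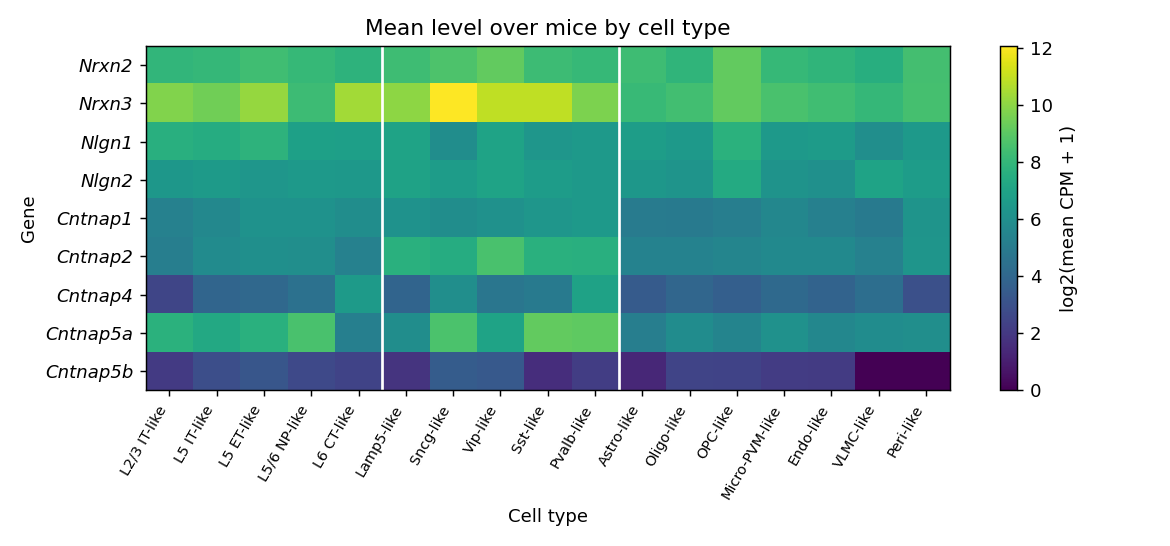
Mean level of each gene (rows) in each of the 17 tested cell types (columns), as log2(mean CPM + 1) over 15 or 16 mice, with white lines between glutamatergic, GABAergic and non-neuronal types. Nrxn3 peaked in Sncg-like neurons at 4336 CPM, and Cntnap2 in Vip-like neurons at 389 CPM.

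Nrxn3 (ENSMUSG00000066392, chromosome 12, 88722876 to 90334935, plus strand) was highest in Sncg-like interneurons, at 4336 ± 743 CPM (SD, n = 16). Sst-like neurons came next at 1925 ± 262 CPM (n = 16). The mice did not overlap between these types, since the lowest Sncg-like value was 3364 CPM and the highest Sst-like value 2367 CPM. The difference was 1.16 ± 0.15 on the log2 scale (SD, higher in 16 of 16 mice, permutation adjusted p = 0.000879). Vip-like neurons, at 1922 CPM, did not differ from Sst-like neurons beyond their spread (adjusted p = 0.91). L5/6 NP-like neurons had 312 ± 64.8 CPM (n = 16), the lowest level among the neuronal types, and did not differ from the neighboring Endo- and Astro-like cells beyond their spread.

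Nrxn2 (ENSMUSG00000033768, chromosome 19, 6418731 to 6544169, plus strand) varied less, from 192 ± 74.3 CPM in VLMC-like cells (n = 15) to 584 ± 63.3 CPM in OPC-like cells (n = 16). OPC-like cells and Vip-like neurons (577 ± 59.6 CPM, n = 16) did not differ beyond their spread (adjusted p = 0.90 by the permutation test). Vip-like neurons stood 0.50 ± 0.28 above Sncg-like neurons on the log2 scale (higher in 15 of 16 mice, permutation adjusted p = 0.00147).

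Among the neuroligins, Nlgn1 (ENSMUSG00000063887, chromosome 3, 25426215 to 26332460, minus strand) was higher over all glutamatergic than over all GABAergic nuclei, but not in every type. It had 172 ± 22.5 CPM over all glutamatergic nuclei and 103 ± 15.5 CPM over all GABAergic nuclei (n = 16 each). Every glutamatergic value (137 CPM or more) was above every GABAergic value (128 CPM or less). By type, Lamp5- and Vip-like interneurons (129 and 128.5 CPM) had higher means than the glutamatergic L5/6 NP- and L6 CT-like neurons (114.9 and 113 CPM). Its highest type was L5 ET-like, at 226 ± 33.04 CPM (n = 16), and its lowest was Sncg-like, at 60.02 ± 26.7 CPM (n = 16). Nlgn2 (ENSMUSG00000051790, chromosome 11, 69823122 to 69837784, minus strand) had 101 ± 12.5 CPM in GABAergic and 87.8 ± 12.9 CPM in glutamatergic nuclei (n = 16 each), and these ranges overlapped. Within each mouse the GABAergic value was the higher, except in mice 14 (106 against 108.5 CPM) and 28 (109 against 111 CPM). This pair was not tested. Nlgn2 was highest in OPC-like cells, at 164 ± 32.5 CPM (n = 16), above Vip-like neurons in 13 of 16 mice (0.35 ± 0.41 on the log2 scale, permutation adjusted p = 0.0174).

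Cntnap2 (ENSMUSG00000039419, chromosome 6, 45059357 to 47304213, plus strand) was higher in interneurons than in glutamatergic neurons. It had 179 ± 29.0 CPM over all GABAergic and 46.7 ± 12.9 CPM over all glutamatergic nuclei (n = 16 each). The lowest GABAergic value was 129 CPM and the highest glutamatergic value 84.1 CPM. Vip-like neurons, at 389 ± 107 CPM, were above Sst-like neurons, at 206 ± 45.7 CPM, in 15 of 16 mice (permutation adjusted p = 0.0028). Sst-, Lamp5-, Pvalb- and Sncg-like neurons followed between 206 and 176 CPM, and no neighbors among them differed beyond their spread. The annotation places 28 other genes within or across the span of Cntnap2, none of them protein-coding.

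Cntnap5a (ENSMUSG00000070695, chromosome 1, 115684756 to 116587323, plus strand) was high in Sst-like (581 ± 136 CPM) and Pvalb-like neurons (542 ± 110 CPM, n = 16 each), which did not differ beyond their spread (permutation adjusted p = 0.50). Pvalb-like neurons were above Sncg-like neurons (398 ± 119 CPM) in 16 of 16 mice. Within the glutamatergic types it ran from 388 ± 95.3 CPM in L5/6 NP-like to 36.04 ± 23.5 CPM in L6 CT-like neurons (n = 16 each). Lamp5-like interneurons, at 59.2 ± 25.3 CPM (n = 16), were also low.

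Cntnap4 (ENSMUSG00000031772, chromosome 8, 112570043 to 112882717, plus strand) was highest in Pvalb-like neurons, at 122 ± 25.9 CPM, followed by L6 CT-like neurons at 95.6 ± 32.8 CPM (n = 16 each, higher in Pvalb-like neurons in 13 of 16 mice, permutation adjusted p = 0.0289). L2/3 IT-like neurons had 4.66 ± 1.81 CPM (n = 16). L6 CT-like neurons thus had high Cntnap4 and low Cntnap5a, and L2/3 IT-like neurons the reverse. Cntnap1 (ENSMUSG00000017167, chromosome 11, 101170523 to 101190724, plus strand) had 88.7 ± 16.1 CPM in Pvalb-like and 38.5 ± 7.04 CPM in L2/3 IT-like neurons (n = 16 each). It overlaps 2 other protein-coding genes. Cntnap5b (ENSMUSG00000067028, chromosome 1, 99772765 to 100485942, plus strand) had 4.25 ± 1.22 CPM over all nuclei (n = 16, 910 UMIs in all). It passed the filter on low counts in 2 of 17 types, and its levels in the other types rested on few UMIs.

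Levels in non-neuronal types have to be read against neuronal RNA in those nuclei. Slc17a7, Snap25, Syt1, Rbfox3, Camk2a and Nrgn, which are used by neurons, stood at 44.2% to 149% of their level in all neurons in Astro-like cells. They stood at 62.1% to 191% in Oligo-like and at 50.6% to 167% in OPC-like cells. Only Nrxn2 (214%) and Nlgn2 (182%) in OPC-like cells lay above the range of these 6 genes, out of 9 members and 7 non-neuronal types. By mouse, Nrxn2 (168% to 268.5%) and Nlgn2 (146% to 268%) overlapped Nrgn (141% to 198%) in OPC-like cells. Nlgn1, at 130% in OPC-like cells, lay within the range only through Nrgn (167%), since the next gene, Snap25, stood at 92.45%. Nlgn2 in VLMC-like cells (145%) was likewise below Nrgn alone (169%). The other values in non-neuronal types were within or below the range and are not read as expression by these cells. Cntnap2, for example, had 58.6% of its neuronal level in Oligo-like cells and Nrxn3 28.7% in Astro-like cells. For Nlgn1 in OPC-like and Nlgn2 in VLMC-like cells that reading rests on Nrgn alone. For Nrxn2 in Astro-like cells (118%, by mouse 101% to 135%) it rests on Camk2a (147%) and Nrgn (149%). The next gene, Snap25, stood at 76.6% there. A gene with the same level in these cells as in neurons would also lie within the range. Expression by these cells is therefore not excluded.

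**Figure D2:**
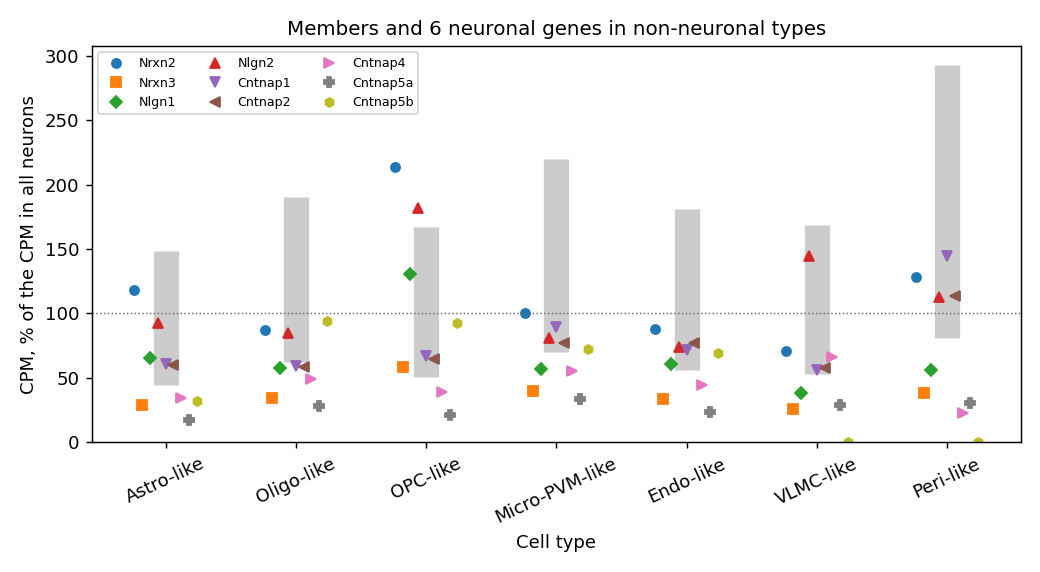
Level of each gene in 7 non-neuronal types as a percentage of its level in all neurons (points), with gray bars for the range of 6 neuronal genes and a dotted line at 100%. Nrxn2 and Nlgn2 in OPC-like cells, at 214% and 182%, lie above the bar, which ends at 167%.

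The comparison between alcohol-exposed 3xTg-AD mice and WT controls asked whether genotype and alcohol together were accompanied by altered expression. Cntnap2 and Cntnap5a were lower in nuclei of glutamatergic types, 2 of the 3 calls being at levels close to or below those in Astro-like cells, and edgeR called no member higher with all 16 mice and without Gm42418 as a covariate. Sums of counts per mouse and type were tested with edgeR, and a gene was called at a Benjamini-Hochberg adjusted p of at most 0.05 over all genes of a type. Of 108 tests of members that passed the filter in the 17 types, 3 were called, all lower, against 1.1% of all tests called and 0.64% called lower. At an unadjusted p under 0.05 there were 17 of 108, against 12.3% of all tests. The 3 calls were Cntnap2 and Cntnap5a in L2/3 IT-like neurons and Cntnap5a in L6 CT-like neurons, where 2.7% and 1.26% of all genes were called in the respective types. Every one of the 3 calls was lost without the mice with high Gm42418.

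L2/3 IT-like neurons had the lowest mean level of Cntnap2 among the 17 types, at 34.5 ± 11.4 CPM (SD, n = 16), beside 40.6 CPM in Astro-like, 39.5 CPM in Oligo-like and 43.5 CPM in OPC-like cells, where such levels are not read as expression. How much of it is RNA of other cells was not tested. In L2/3 IT-like neurons, Cntnap2 had 69.7, 46.5, 30.5 and 38.6 CPM in WT controls 26, 27, 28 and 36. It had 19.6, 22.2, 28.6 and 30.4 CPM in alcohol-exposed 3xTg-AD mice 4, 31, 33 and 34. The groups did not overlap, but the lowest control (30.5 CPM) and the highest exposed mouse (30.4 CPM) nearly met, and the 2 highest controls were the mice with high Gm42418. Levels were 33.01, 33.8, 38.2 and 34.3 CPM in alcohol-exposed WT mice and 35.8, 25.4, 34.1 and 31.8 CPM in 3xTg-AD mice. The log2 fold change was -0.90 (SE 0.20, adjusted p = 0.0143). It was -0.46 (adjusted p = 0.21) without the 3 mice, -0.34 (adjusted p = 0.41) with Gm42418 as a covariate, and -0.61 (adjusted p = 0.0938) without WT control 26 alone. The call was also lost without exposed mouse 4 (-0.78, adjusted p = 0.0659) or 31 (-0.85, adjusted p = 0.0540).

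Cntnap5a in the same neurons had 365, 294, 190 and 248 CPM in the WT controls, in the order above, and 158, 143, 169 and 208 CPM in alcohol-exposed 3xTg-AD mice. The groups overlapped at control 28. Alcohol-exposed WT mice had 188, 154, 191 and 170 CPM, much like the exposed 3xTg-AD mice. The log2 fold change was -0.70 (SE 0.17, adjusted p = 0.0282). It was -0.37 (adjusted p = 0.24) without the 3 mice and -0.28 (adjusted p = 0.43) with the covariate. Leaving out WT control 26 or 27 or exposed mouse 4, 31 or 33 also ended the call, with log2 fold changes between -0.70 and -0.52 (adjusted p between 0.0613 and 0.103).

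In L6 CT-like neurons, Cntnap5a did not differ beyond its spread from the level in Astro-like cells (36.04 and 34.8 CPM, permutation adjusted p = 0.91) or in OPC-like cells (42.6 CPM, permutation adjusted p = 0.58). Oligo- and Micro-PVM-like cells had means of 57.4 and 67.6 CPM, and these pairs were not tested. How much of this level is RNA of other cells was not tested. Cntnap5a in L6 CT-like neurons had 113, 29.0, 65.8 and 35.02 CPM in WT controls. It had 23.1, 19.6, 24.8 and 19.6 CPM in alcohol-exposed 3xTg-AD mice, all below the controls. The log2 fold change was -1.48 (SE 0.34, adjusted p = 0.0336). Without WT control 26, which had 87 UMIs against 14 to 61 in the other controls, it was -0.90 (adjusted p = 0.11). It was -1.03 (adjusted p = 0.0511) without the 3 mice and -0.89 (adjusted p = 0.34) with the covariate. Without WT control 28 or any 1 exposed mouse it stayed between -1.52 and -1.42, with an adjusted p between 0.0613 and 0.124. The call was also lost without 3xTg-AD mouse 14 (-1.47, adjusted p = 0.0512).

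**Figure D3:**
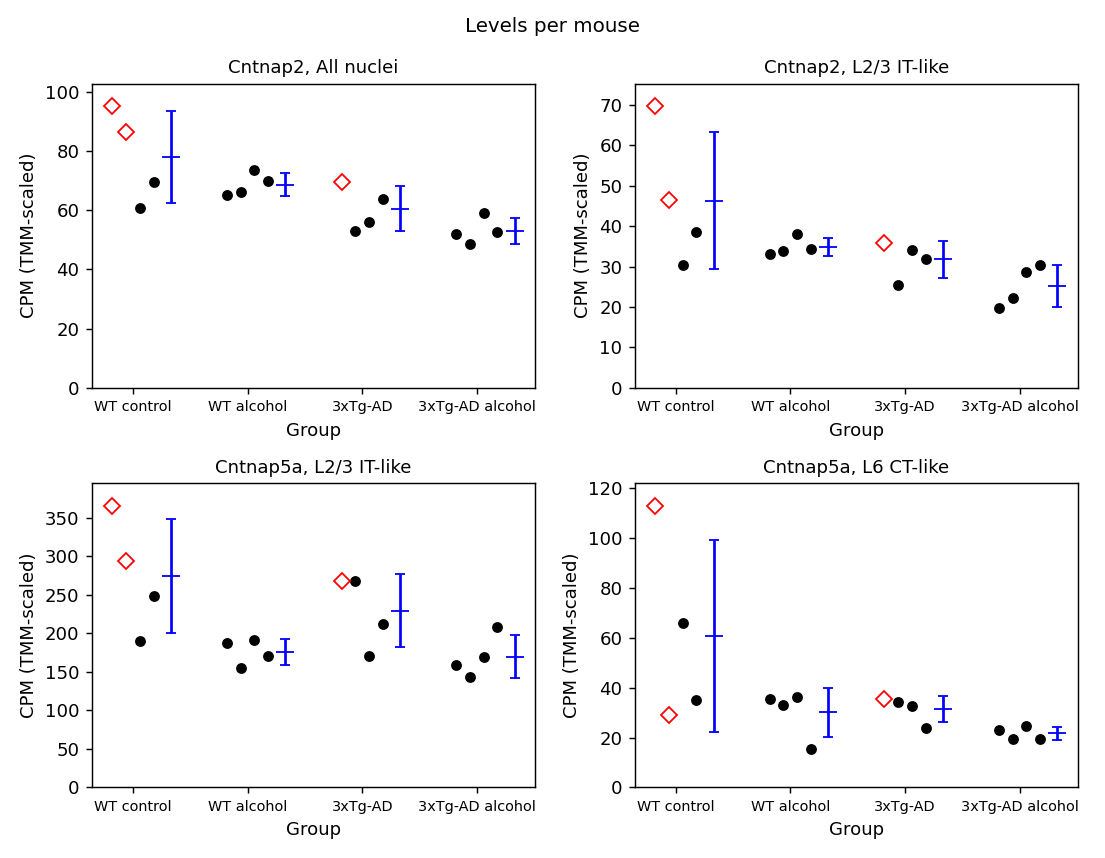
TMM-scaled CPM of Cntnap2 in all nuclei and in L2/3 IT-like neurons, and of Cntnap5a in L2/3 IT- and L6 CT-like neurons. Points are single mice, open red diamonds are the 3 mice with high Gm42418, and blue bars are the mean ± SD of 4 mice. WT control 26 is the highest mouse in each panel, for example at 113 CPM for Cntnap5a in L6 CT-like neurons.

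Summed over larger groups of nuclei, Cntnap2 was lower in all nuclei (-0.56, SE 0.13, adjusted p = 0.0210) and in all glutamatergic nuclei (-0.70, SE 0.17, adjusted p = 0.0322). Cntnap5a was lower in all glutamatergic nuclei (-0.56, SE 0.15, adjusted p = 0.0440). In a sum of all nuclei, fewer nuclei of a type and less RNA per nucleus cannot be told apart. These were 1 of 9 members in all nuclei, where 4.06% of all genes were called, and 2 of 9 in all glutamatergic nuclei, where 3.4% were called. In all GABAergic nuclei, 0 of 8 members tested were called by edgeR or by DESeq2, against 1.14% of all genes called by edgeR, and 0 had an unadjusted p under 0.05, against 13.9% of all genes. This sum includes the Meis2-like nuclei of WT control 27, and Nrxn3 in the sum was 2303 CPM in that mouse, beside 1236 to 1478 CPM in the other WT controls, and the part of these nuclei in the result was not tested. Cntnap2 in all nuclei had 95.2, 86.6, 60.7 and 69.6 CPM in WT controls and 52.1, 48.4, 59.1 and 52.6 CPM in alcohol-exposed 3xTg-AD mice. Without the 3 mice, the value was -0.30 (adjusted p = 0.13) in all nuclei and -0.26 (adjusted p = 0.24) in glutamatergic nuclei, and that of Cntnap5a in glutamatergic nuclei was -0.34 (adjusted p = 0.20). The call of Cntnap2 in all nuclei was also lost without WT control 26 (-0.44, adjusted p = 0.0656) or 27, or exposed mouse 31 or 34. In glutamatergic nuclei it was lost without WT control 26 (-0.49, adjusted p = 0.11) or 27, or any 1 exposed mouse. The call of Cntnap5a in glutamatergic nuclei held in 6 of the 16 fits with 1 mouse left out.

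Cntnap5a in all nuclei had 250, 161, 175 and 180 CPM in WT controls and between 135 and 137 CPM in the 4 alcohol-exposed 3xTg-AD mice, without overlap. Its log2 fold change of -0.49 (SE 0.14, adjusted p = 0.0594) missed the threshold of edgeR and passed that of DESeq2 (-0.49, adjusted p = 0.0232). Without the 3 mice with high Gm42418 it was -0.38 (edgeR adjusted p = 0.11). Alcohol-exposed WT mice had 129 to 144 CPM, while unexposed 3xTg-AD mice spread from 132 to 216 CPM.

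The values of Cntnap2 and Cntnap5a were negative in most other types without passing the edgeR test. Cntnap2 was negative in 12 of 13 types tested, between -1.41 in Oligo-like cells (adjusted p = 0.0892, 3 to 22 UMIs per mouse in these 2 groups) and 0.08 in Vip-like neurons, where its level is highest. Among neuronal types it was negative in 9 of 10. Leaving out exposed mouse 33 gave an edgeR call of Cntnap2 in Oligo-like cells (-1.81, adjusted p = 0.0204), where its level is not read as expression. The 4 groups had 361 to 406 CPM on average in Vip-like neurons, with overlapping ranges. Cntnap5a was negative in 13 of 14 types, the exception being Lamp5-like neurons (0.10, adjusted p = 0.96), and in 9 of 10 neuronal types. All types come from the same mice, so these counts are not independent evidence. In L5 IT-like neurons the values were -0.73 for Cntnap2 (adjusted p = 0.0734) and -0.59 for Cntnap5a (adjusted p = 0.0576). Cntnap5a was called there by DESeq2 (-0.59, adjusted p = 0.0442) and by edgeR with no filter on low counts (-0.58, adjusted p = 0.0476), but not without the 3 mice (-0.44, adjusted p = 0.19). Cntnap2 was called there without the nuclei of highest doublet score (-0.83, adjusted p = 0.0361), but not by DESeq2 (-0.73, adjusted p = 0.0543), without the 3 mice (-0.24, adjusted p = 0.63) or with the covariate (-0.11, adjusted p = 0.86). With 1 mouse left out, Cntnap2 stayed uncalled there in 14 of 16 fits and Cntnap5a in 13 of 16. For example, edgeR called Cntnap2 without exposed mouse 34 (-0.89, adjusted p = 0.0435) and Cntnap5a without 3xTg-AD mouse 14 (-0.59, adjusted p = 0.0428). Whether a called difference was larger than in the other 9 neuronal types was tested by exact permutation of the mice, where 4 against 4 cannot give a p below 0.0286. Cntnap2 in L2/3 IT-like neurons differed by a further -0.41 on the log2 scale (exact p = 0.0571, adjusted p = 0.13). Cntnap5a differed by -0.88 in L6 CT-like (adjusted p = 0.13) and by -0.24 in L2/3 IT-like neurons (adjusted p = 0.26, exact permutation tests). The differences were thus not shown to be particular to these types. After adjustment over the 3 calls, the test could not have shown this for 1 call alone, whatever its size.

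**Figure D4:**
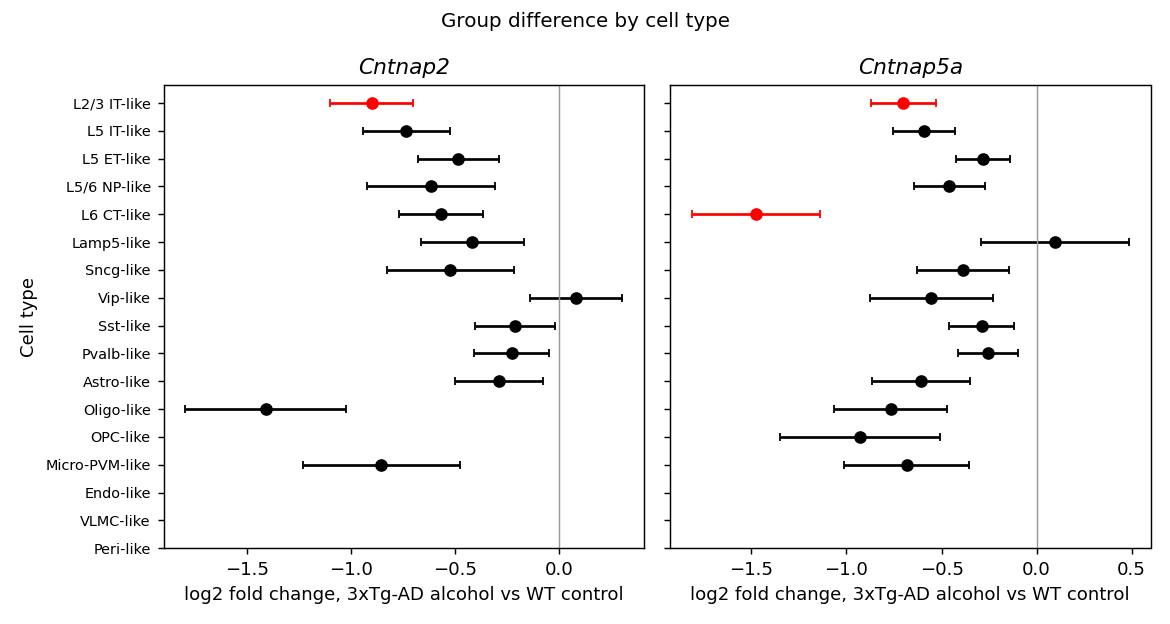
Log2 fold change of Cntnap2 (left) and Cntnap5a (right) between alcohol-exposed 3xTg-AD mice and WT controls, by cell type, with bars of 1 SE. Red points passed the test, at -0.90 for Cntnap2 in L2/3 IT-like neurons and at -0.70 and -1.48 for Cntnap5a in L2/3 IT- and L6 CT-like neurons. Types without a point did not pass the filter on low counts.

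The other 7 members were called in none of the 81 tests in cell types by edgeR or DESeq2 without the covariate, and 2 of the 81 had an unadjusted p under 0.05, against 12.3% of all tests. Nlgn2 in all nuclei had 95.3, 84.4, 114.5 and 107 CPM in WT controls 26, 27, 28 and 36 and 90.1, 74.9, 86.6 and 73.0 CPM in alcohol-exposed 3xTg-AD mice 4, 31, 33 and 34. The lowest control, mouse 27, has high Gm42418 and is the only control within the range of the exposed mice. The log2 fold change was -0.31 (SE 0.11, adjusted p = 0.14). In contrast to Cntnap2, the value was larger without the 3 mice, at -0.45 (adjusted p = 0.0218), and with the covariate, at -0.55 (adjusted p = 0.0115). Unexposed 3xTg-AD mice had 103 ± 14.3 CPM and alcohol-exposed WT mice 91.03 ± 2.86 CPM (SD, n = 4 each). Over types of the same mice, Nlgn2 was negative in 13 of 15, and in 8 of 10 neuronal types. Between 3xTg-AD mice with and without alcohol, Nlgn2 in all nuclei had -0.34 (adjusted p = 0.20), and it was called lower without the 3 mice (-0.43, adjusted p = 0.0209) and with the covariate (-0.48, adjusted p = 0.00938).

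Nrxn3 in all nuclei was highest in WT control 27 (1229 CPM) and 3xTg-AD mouse 12 (1115 CPM), and the other 14 mice had 626 to 987 CPM. Both mice have high Gm42418, and they also held most of the Meis2-like and the striatal-like nuclei, respectively. All glutamatergic nuclei include neither kind, and there the highest 3xTg-AD mouse had 1197 CPM beside a group median of 820 CPM. The highest WT control had 1038 CPM there beside a median of 816 CPM. The part of the Meis2- and striatal-like nuclei in the result was not tested. In all nuclei, the log2 fold change between alcohol-exposed 3xTg-AD mice and WT controls was -0.06 (adjusted p = 0.90), and 0.24 (adjusted p = 0.36) without the 3 mice. In all glutamatergic nuclei it was 0.12 (adjusted p = 0.72), and 0.52 (adjusted p = 0.0354) with the covariate. In L5 IT-like neurons it was 0.25 (adjusted p = 0.35), and with the covariate Nrxn3 was called higher there (0.53, adjusted p = 0.0283). Without the 3 mice, edgeR called no member in any cell type for this comparison, so this call was not made there. The values of Nrxn3 without the 3 mice are not given here for L5 IT-like neurons or all glutamatergic nuclei. In Sncg-like neurons, where Nrxn3 is highest, the 4 groups had 4516 ± 672 CPM (WT control), 4017 ± 398 CPM (WT alcohol), 4346 ± 1369 CPM (3xTg-AD) and 4466 ± 274 CPM (3xTg-AD alcohol, SD, n = 4 each), and their ranges overlapped.

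Nrxn2 had 308 ± 39.3 CPM in all nuclei of WT controls and 279.5 ± 23.6 CPM in alcohol-exposed 3xTg-AD mice (n = 4 each), with overlapping ranges and a median log2 fold change of -0.06 over 17 types. Nlgn1 had 143 ± 5.32 and 150.5 ± 11.5 CPM in the same groups (n = 4 each). It had 167 ± 16.3 CPM in alcohol-exposed WT mice and 135 ± 10.7 CPM in unexposed 3xTg-AD mice (n = 4 each). Each alcohol group thus had the higher mean of its genotype, with overlapping ranges. Between alcohol-exposed 3xTg-AD mice and WT controls, Nlgn1 was positive in 10 of 13 types and negative in 1 of 9 neuronal types. Its median log2 fold change was 0.17 and its smallest edgeR adjusted p 0.50. Cntnap1, Cntnap4 and Cntnap5b passed the filter in 10, 7 and 2 types, with medians between -0.04 and 0.14.

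The remaining comparisons separate genotype from alcohol, and edgeR called 0 of 108 tests of members in each of the 5. Of all tests, 0.181% were called between unexposed 3xTg-AD and WT mice, 0.0257% in alcohol-exposed WT mice versus their controls, 0.192% in 3xTg-AD mice with versus without alcohol, 0.353% in alcohol-exposed 3xTg-AD versus alcohol-exposed WT mice, and 0.0019% for the interaction of genotype and alcohol. In the same order, 7, 14, 15, 9 and 4 of the 108 had an unadjusted p under 0.05, against 6.38%, 8.97%, 8.29%, 8.52% and 4.16% of all tests. DESeq2 called 1 of them, Cntnap5a in L5 IT-like neurons in alcohol-exposed WT mice (DESeq2 -0.68, adjusted p = 0.0228, and edgeR -0.67, SE 0.16, adjusted p = 0.18). Without the 3 mice with high Gm42418, the edgeR value was -0.52 (adjusted p = 0.34). In L2/3 IT-like neurons, Cntnap5a had -0.64 (adjusted p = 0.26) in alcohol-exposed WT mice and -0.26 (adjusted p = 0.74) in unexposed 3xTg-AD mice, each set against the WT controls. Cntnap2 had -0.41 (adjusted p = 0.48) and -0.54 (adjusted p = 0.38) in the same comparisons. These comparisons share the WT controls, mice 26 and 27 included. Cntnap2 in all nuclei had 65.3, 66.1, 73.6 and 69.8 CPM in alcohol-exposed WT mice 6, 7, 17 and 18, above each of the 4 alcohol-exposed 3xTg-AD mice (48.4 to 59.1 CPM). This difference missed the threshold (-0.37, SE 0.13, adjusted p = 0.18). It passed without the 3 mice with high Gm42418 (-0.36, adjusted p = 0.0441), none of which belongs to these groups. The interaction was 0.05 (SE 0.29) for Cntnap2 and 0.20 (SE 0.24) for Cntnap5a in L2/3 IT-like neurons.

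The proteins that bind these families were listed as 70 genes in 4 lists, of which 65 passed the filter in at least 1 type. Between alcohol-exposed 3xTg-AD mice and WT controls, 5 of 765 tests were called, all lower, against 1.1% of all tests called. The median log2 fold change was -0.09, beside -0.14 for the 9 members and 0.00 for all genes. Of the 5 calls, 4 fell in the list of contactins and proteins of the paranode and juxtaparanode and 1 in the list of scaffolds. Cntn3, a contactin, was lower in L2/3 IT-like (-0.78, SE 0.15, adjusted p = 0.00564) and in Pvalb-like neurons (-1.25, SE 0.33, adjusted p = 0.0388). DESeq2 called it in L2/3 IT-like neurons (adjusted p = 0.000607) and not in Pvalb-like neurons (adjusted p = 0.0902). Without the 3 mice with high Gm42418, it was still called in L2/3 IT-like neurons (-0.72, adjusted p = 0.0143) and not in Pvalb-like neurons (-0.95, adjusted p = 0.20). With the covariate, the value in L2/3 IT-like neurons was -0.58 (adjusted p = 0.0578). The group means of Cntn3 in L2/3 IT-like neurons were 103 CPM in WT controls, 83.8 CPM in 3xTg-AD mice, 65.2 CPM in alcohol-exposed WT mice and 59.4 CPM in alcohol-exposed 3xTg-AD mice. In all nuclei they were 75.5, 70.2, 48.8 and 46.7 CPM in the same order, so the level was low in both alcohol groups. For alcohol in WT mice, Cntn3 in all nuclei had -0.63 (edgeR adjusted p = 0.14, DESeq2 adjusted p = 0.000761). For alcohol in 3xTg-AD mice it was called lower by edgeR in all nuclei (-0.59, adjusted p = 0.0314) and in all glutamatergic nuclei (-0.57, adjusted p = 0.0318). Adam23, a receptor of the secreted LGI proteins, was lower in L2/3 IT-like neurons (-0.47, SE 0.12, adjusted p = 0.0384), and had -0.31 (adjusted p = 0.25) without the 3 mice. Its other call was in Micro-PVM-like cells, where the group means of 51.1 to 123 CPM lay below those in all glutamatergic nuclei (138 to 158 CPM), and it is not read as expression by these cells. The postsynaptic scaffold Shank2 was lower in Vip-like neurons (-1.71, SE 0.41, adjusted p = 0.0180), and had -1.19 (adjusted p = 0.49) without the 3 mice and -1.26 (adjusted p = 0.40) without WT control 26 alone. Leaving out WT control 26 also ended the call of Adam23 in L2/3 IT-like neurons (adjusted p = 0.14), and leaving out WT control 27 ended that of Cntn3 in Pvalb-like neurons (-0.90, adjusted p = 0.20). By list, the median was -0.13 over 235 tests of contactins and proteins of the paranode and juxtaparanode, -0.09 over 245 tests of scaffolds, -0.04 over 252 tests of extracellular partners and 0.11 over 33 tests of 3 other genes of the same families. In the other 5 comparisons edgeR called 2 partners in the types, both between alcohol-exposed 3xTg-AD and alcohol-exposed WT mice, where they were 2 of 765 tests against 0.353% of all tests. They are named here after their values were seen. These were Cntn4 in Pvalb-like neurons (1.26, SE 0.27, adjusted p = 0.0129) and Nfasc in Oligo-like cells (-0.91, SE 0.21, adjusted p = 0.0429).

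Genes whose mean log2 level ran most like that of a member over the 17 types are given as a description, since the types share libraries and depth. Nrxn3 was most like Fstl5 (Pearson r = 0.87), Cacna1b (0.86) and Dpysl4 (0.86). Among the neuroligins, Nlgn1 was most like Acp1 (0.92), Dok6 (0.90) and Slitrk5 (0.85), and Nlgn2 most like Rev3l (0.87), Top2b (0.82) and Xrn1 (0.81). Cntnap2 was most like Clstn3 (0.92), Vstm2a (0.88) and Tcf4 (0.87). Cntnap5a was most like AI504432 (0.82), Meg3 (0.81) and Vwa5b2 (0.81). Cntnap4, with Pdcd7 (0.78), Usp45 (0.78) and Srrm2 (0.76), and Cntnap5b, with Ctnna2 (0.82), Slc6a7 (0.82) and Adrb1 (0.82), passed the filter on low counts in 7 and 2 types, so their values rest on few UMIs in the other types. Clstn3, a calsyntenin, is itself on the list of extracellular partners.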

How the data were processed

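Single-nucleus RNA-Seq counts of 16 mice were used. Per the labels, the authors used the mm10 genome and Cell Ranger 6.1.1 (with STAR) for their 10x Genomics libraries and deposited raw UMI counts per gene and nucleus in 1 table without normalization. Whether intronic reads were counted is not given in the sources used here. Groups were taken from the sample labels. Gene positions are from GENCODE M21 (GRCm38).

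The members and gene lists were chosen with earlier results of these data known. Nuclei were clustered with Python 3.11.15 and igraph 0.11.9 (2000 variable genes without the members and lists, 30 principal components, 20 neighbors, Leiden resolution 3), after other settings had been judged on marker genes alone. A name needed at least 50 nuclei and 3 markers raised 1.5-fold, and these types need not match those of the authors. Scrublet called 479 nuclei (0.42%) doublets, too few for a working call, and none was removed.

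Counts were summed per mouse and type (at least 10 nuclei per mouse, 3 mice per group) and fitted by edgeR 4.0.16 under R 4.3.3 (filterByExpr, TMM, group means, robust quasi-likelihood test), with Benjamini-Hochberg adjustment over the genes of each type and comparison. Permutation tests were two-sided, on log2(CPM + 1). All 9 members were named, as were up to 8 listed partner genes called in the most types (3 qualified) and, for each member, the 3 genes with the highest Pearson r of mean log2(CPM + 1) over types, which are not reported here for Nrxn2 and Cntnap1. Alternatives were DESeq2 1.42.0, its size factors, no filter, leaving out each mouse or the 3 mice with high Gm42418, Gm42418 as a covariate, a stricter filter on nuclei (500 genes, 5% mitochondrial UMIs), and removal of the 6% of nuclei with the highest doublet scores. On counts simulated for L2/3 IT-like neurons (12373 genes), edgeR recovered 83% of 100 genes changed by 1 on the log2 scale and 35% of 100 changed by 0.7, with 4.8% false calls. The simulation used the same dispersion for every gene and mouse and changed only genes above a minimum mean count. It held no outlying mice, so its rate of false calls does not apply to calls that rest on single mice.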

Additional observations from a re-analysis of the deposited data

Results flagged for a closer look

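Of 68 groups of 4 mice examined for a single value far from the others, 6 were flagged, and chance flags about 1 in 20. In all nuclei, 3xTg-AD mouse 12, one of the 3 mice with high Gm42418, was the highest of its group for Nrxn3 (1115 CPM, the others 714 to 731), for Nlgn1 (150.9 CPM, the others 129 to 130) and for Cntnap5b (6.96 CPM, the others 2.72 to 3.103). Alcohol-exposed 3xTg-AD mouse 34 was the highest for Nrxn3 in all nuclei (987 CPM, the others 747 to 781). Cntnap5a was lowest in 3xTg-AD mouse 14 in L5 IT-like neurons (124.5 CPM, the others 176 to 181) and in alcohol-exposed WT mouse 18 in L6 CT-like neurons (15.5 CPM, the others 33.2 to 36.3).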

How the results depend on the processing

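No paired analysis was possible because mouse numbers are unique to each mouse. For alcohol-exposed 3xTg-AD mice versus WT controls, the 3 calls in the 17 types became 0 without the 3 mice with high Gm42418 and 1 (Nrxn3 higher in L5 IT-like neurons, 0.53) with the covariate, were 4 by DESeq2, with no filter and without high doublet scores, and ran from 0 to 4 when 1 mouse was left out. Of all tests in these types, 1.1% were called with all mice, 0.998% without the 3 mice and 1.56% with the covariate. The share was 1.44% by DESeq2, 0.625% with no filter and 1.15% without high doublet scores. It ran from 0.526% to 1.38% when 1 mouse was left out. The 3 calls in the larger sums were 4 by DESeq2 and also ran from 0 to 4. Without the 3 mice these sums gave 2 calls and with the covariate 3, but of Nlgn2 and Nrxn3 in place of Cntnap2 and Cntnap5a. For alcohol-exposed WT mice versus their controls, DESeq2 made 1 call in the types and 1 in the sums. For 3xTg-AD mice with versus without alcohol, the covariate gave 1 call in the types and 3 in the sums, leaving out the 3 mice gave 2 in the sums, and leaving out 1 mouse 0 to 1 in the sums, all lower and of Nlgn2 except 1 of Nrxn2 with the covariate. For alcohol-exposed 3xTg-AD versus alcohol-exposed WT mice, the covariate gave 1 call in the types (Nrxn2 lower in Micro-PVM-like cells), leaving out the 3 mice 1 in the sums (Cntnap2 lower in all nuclei), and leaving out 1 mouse 0 to 1 in the types (Nrxn2 as above). The cause was not tested. In all nuclei, Nrxn3 turned from -0.06 to 0.24 without the 3 mice and 0.39 with the covariate, and ran from -0.16 to 0.18 with 1 mouse left out. Cntnap5b turned from 0.00 to -0.0083 under the stricter filter and -0.0632 without high doublet scores, and ran from -0.17 to 0.18. With 1 mouse left out, Cntnap1 ran from -0.16 to 0.022 and Cntnap4 from -0.0682 to 0.35. The levels in each member's highest type moved by less than 1 SD under the alternatives run for them. Genes with few UMIs in a type were left out by the filter, so changes in them were not tested with it. Small changes could not be detected at this depth. Left out was Cntnap2 in OPC-like cells, with means of 53.46 CPM in WT controls and 25.96 CPM in alcohol-exposed 3xTg-AD mice, without overlap. In Endo-like cells it had 62.31 and 22.32 CPM, also without overlap, and in Peri- and VLMC-like cells the groups overlapped. The paper reports lower Cntnap2 in OPC and higher Cntnap5b in VIP neurons for these groups. Cntnap5b in Vip-like neurons, also left out, had 10.73 and 11.62 CPM, with overlap.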
